A study of Homo sapiens with 9 samples.

Results

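Aminoacyl-tRNA synthetases are the enzymes that join each amino acid to its own tRNA, and every protein the cell makes depends on them. Human cells hold one set of these enzymes in the cytosol and another in the mitochondrion, and all of them are encoded in the nucleus. Genes of the mitochondrial set carry a 2 at the end of their name, as in HARS2 beside HARS, which both encode a histidyl-tRNA synthetase. The letter before ARS is the amino acid, so that GARS charges glycine and WARS tryptophan; GARS and KARS also supply their enzymes to the mitochondrion, and FARSA and FARSB encode the α and β subunits of the cytosolic phenylalanyl enzyme. Several cytosolic synthetases are held together in the multisynthetase complex by scaffold proteins, and many of the cytosolic genes are known targets of ATF4, the transcription factor of the amino acid response. WARS is in addition a classical interferon-induced gene.

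The mRNAs of 36 synthetase genes were measured, 20 of the cytosolic and 16 of the mitochondrial set. The genes were chosen by name out of 16199 genes listed in any library, at a time when earlier results of these data were known. All 36 had counts in each library and passed the filter on low counts, as did 12394 genes in all. The lowest expected count of a synthetase gene in any library was 143.6 and the highest 13755.

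The cells were HaCaT, a single immortalized line of human keratinocytes with wild-type genotype per the labels, grown past confluence and kept in serum-free medium in every group. The 3 groups of 3 libraries were untreated cells, cells given epidermal growth factor (EGF, 10 nM) and cells given bleogen pB1 (1 µM), a cystine-knot peptide from a cactus that acts on the EGF receptor, with treatments of 24 h. The question was how the peptide compares with EGF, the receptor's own ligand, in what it does to gene expression. The doses of the agents differ, and both treatments were compared with the same untreated libraries. Nothing in the labels says that the replicates were separate cultures, so that p-values measure the spread between these libraries, which may be technical.

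The libraries held between 20288417 and 21320994 expected counts (estimated reads per gene, which need not be whole numbers), and 3 counts correspond to 0.141 to 0.148 CPM, covering counting error only. CPM denotes counts relative to library size. The value for 3 counts and the summed marker levels use the library totals alone. All other CPM are adjusted by TMM factors of 0.9635 to 1.024. No library stood out as a copy of another. All 6 keratinocyte markers were present, with a summed level of 11010 to 12110 CPM in untreated, 8892 to 9139 CPM in EGF-treated and 10890 to 12620 CPM in bleogen pB1-treated libraries. Summed markers of fibroblasts reached at most 4.511 CPM, of melanocytes 1.606, of endothelial cells 1.51 and of leukocytes 0.3789, and the melanocyte gene TYR was at 0 in all libraries. With EGF 4 of the 6 keratinocyte markers rose and 1 fell, against 32.4% and 33.6% of all genes tested. The lower sum went with KRT5, a basal keratin and the most abundant of them, which fell by 1.12 on the log2 scale. Summed fibroblast markers were lowest with EGF too, and the part of such shifts in the results was not tested.

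The amino acid response element is the stretch of DNA through which ATF4 and its partners act. Its letters were searched as TGATGNAA on both strands of RefSeq promoter windows (GRCh38.p14, 250 bases before to 50 after a gene's start), which were at hand for 30 of the 36 genes and not for DARS, LARS, VARS, YARS, AARS2 and VARS2. They were found for 7 of 16 cytosolic genes and 1 of 14 mitochondrial genes, YARS2, against 3.62% of all 35116 windows and 2.85% of the 10169 tested genes that have a window. The matches of the cytosolic genes are shown so that the element can be read beside the values of these genes. Of the 7 genes 6 rose with EGF and AARS fell, and of the 9 cytosolic genes with a window and no match 7 rose and 1 fell. Of all genes tested 32.4% rose with EGF and 33.6% fell. Each stretch is written on the strand of its gene with the match in capitals.
TARS (chr5:33440956-33440985, + strand): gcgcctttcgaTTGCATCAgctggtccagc
GARS (chr7:30594834-30594863, + strand): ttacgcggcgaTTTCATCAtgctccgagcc
IARS (chr9:92293692-92293721, - strand): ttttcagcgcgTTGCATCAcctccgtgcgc
CARS (chr11:3057407-3057436, - strand): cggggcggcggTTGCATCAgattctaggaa
MARS (chr12:57488053-57488082, + strand): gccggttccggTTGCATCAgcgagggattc
AARS (chr16:70289675-70289704, - strand): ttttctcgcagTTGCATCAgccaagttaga
NARS (chr18:57621804-57621833, - strand): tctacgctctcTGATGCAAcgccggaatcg
In TARS, IARS, CARS, MARS and AARS the matched letters are the same, GARS has another spelling that the search allows, and NARS holds the element in the other orientation. In TARS, IARS, CARS, MARS and NARS the match begins within 15 bases of the RefSeq start, in GARS at position -33 from it and in AARS at -187. A match of letters does not show that a factor binds there.

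Before treatment, the cytosolic set was the more abundant per length. The summed level of the 20 cytosolic mRNAs in untreated cells was 1328.9 ± 55.1 FPKM (fragments scaled to gene length and library size, SD, n = 3) and that of the 16 mitochondrial mRNAs 272.4 ± 5.65 FPKM. GARS was the most abundant synthetase mRNA at 144.6 ± 9.10 FPKM. It was followed by NARS at 110.3 ± 5.47, TARS at 109.4 ± 4.11, WARS at 107.6 ± 6.96, KARS at 107 ± 4.58 and IARS at 103.7 ± 7.09 FPKM, a run in which neighbours differed by less than their SD. VARS was the lowest cytosolic mRNA at 18.5 ± 0.428 FPKM. In the mitochondrial set, IARS2 stood apart at 92.2 ± 5.19 FPKM, followed by CARS2 at 29.0 ± 0.990 FPKM. The lowest levels were those of AARS2 at 4.55 ± 0.324 and MARS2 at 4.39 ± 0.343 FPKM, which did not differ beyond their spread.

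**Figure D1:**
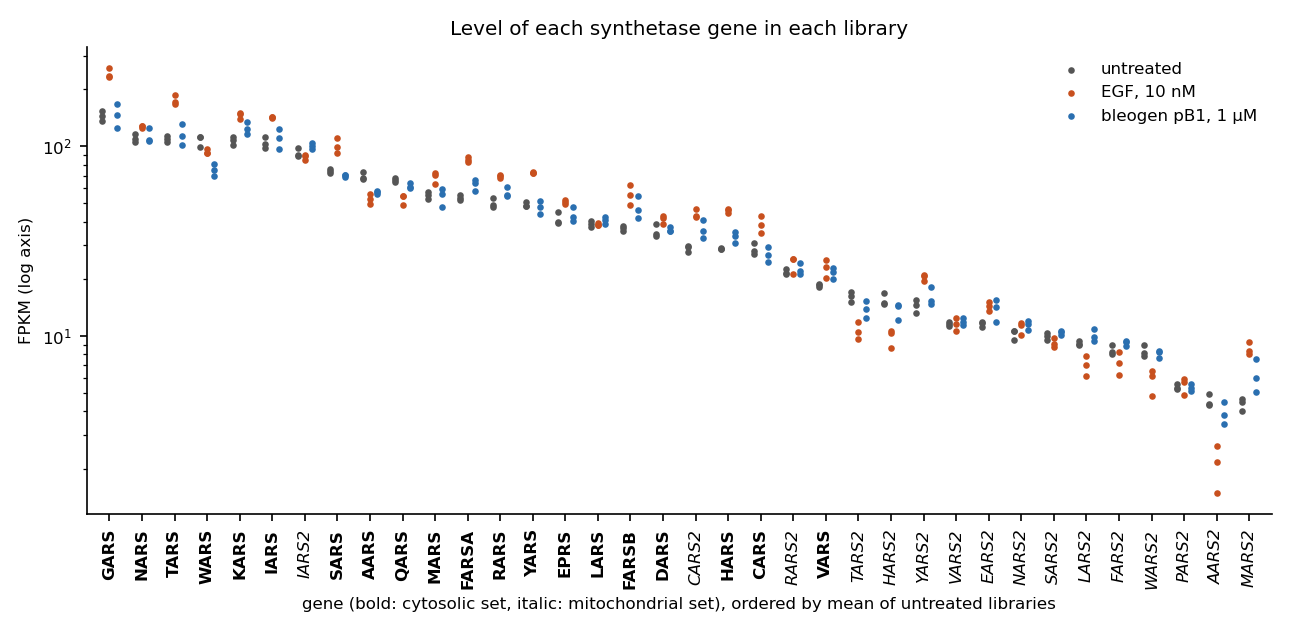
Level of each of the 36 synthetase genes in FPKM (y axis, log scale) in each of the 9 libraries, with genes on the x axis ordered by the mean of the untreated libraries and bold labels for the cytosolic set. Points are libraries, 3 per group, and the genes run from GARS, with a mean of 144.6 FPKM in untreated cells, to MARS2, with 4.39 FPKM.

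With EGF, most cytosolic synthetase mRNAs rose, while the mitochondrial set held genes that rose and genes that fell. Of the 20 cytosolic genes, 16 rose, 2 fell and 2 did not pass the test. Of the 16 mitochondrial genes, 5 rose, 5 fell and 6 did not pass. A gene is said to rise or fall where its adjusted p in edgeR's quasi-likelihood test was at most 0.05 (Benjamini-Hochberg over all genes tested). EGF changed much of the transcriptome, with 32.4% of all genes tested rising and 33.6% falling, so that the mitochondrial counts are near this background. The median log2 fold change was 0.50 over the cytosolic and 0.02 over the mitochondrial genes, against -0.013 over all genes tested. With the study's limit of a log2 fold change of at least 0.5 in size added, 10 cytosolic genes rose and none fell, and 3 mitochondrial genes rose and 3 fell, against 15.1% and 21.8% of all genes tested. The split of all calls depends on the scaling of the libraries, since 49.1% of the genes called were higher with TMM factors and 38.8% with upper-quartile factors, which shift the median of all genes to -0.118. With the latter factors the cytosolic set still had 16 genes that rose and 3 that fell, with a median of 0.40. The data are bulk RNA, in which fewer cells with a transcript and less of it per cell cannot be told apart.

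The summed level of the cytosolic mRNAs was 1715.8 ± 17.8 FPKM with EGF, 1.291 times the untreated mean. That of the mitochondrial mRNAs was 279.3 ± 6.52 FPKM, or 1.025 times the untreated mean. Divided by the untreated mean, the cytosolic sums had an SD of 0.0134 with EGF and of 0.04145 in untreated libraries (n = 3 each). In bleogen pB1-treated cells the sums were 1342.9 ± 97.2 and 292.6 ± 10.8 FPKM, or 1.011 and 1.074 times the untreated mean.

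**Figure D2:**
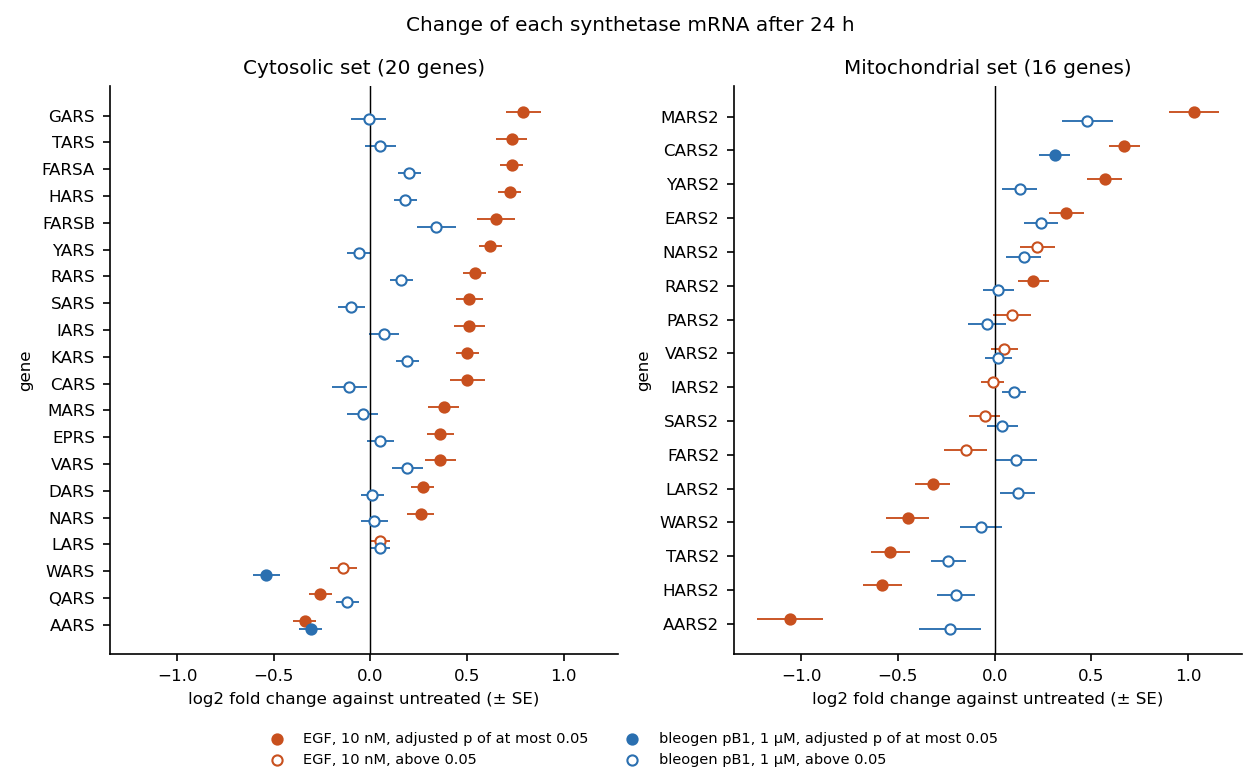
Log2 fold change against untreated cells (x axis) with its SE (bars) for the 20 cytosolic (left) and 16 mitochondrial (right) synthetase genes, 3 libraries per group, with filled points for an adjusted p of at most 0.05. Under EGF (orange) 16 cytosolic genes lie right of 0 with filled points and the mitochondrial genes spread from AARS2 at -1.06 to MARS2 at 1.03, while under bleogen pB1 (blue) only WARS, AARS and CARS2 are filled.

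The largest rise in the cytosolic set was that of GARS, whose enzyme charges glycine. GARS had 340.9, 322 and 360.2 CPM in untreated libraries, 570.1, 632 and 572.8 CPM with EGF, and 290.3, 386.3 and 339.3 CPM with bleogen pB1. Its log2 fold change under EGF was 0.79 (SE 0.09, adjusted p = 7.3e-06 in edgeR). The EGF libraries lay far above all others, and those of bleogen pB1 overlapped the untreated ones. TARS, the threonyl enzyme, had 285.4, 294 and 305.1 CPM untreated, 466.6, 519.3 and 480.1 CPM with EGF, and 271.3, 346.7 and 299.7 CPM with bleogen pB1. Its log2 fold change under EGF was 0.73 (SE 0.08, adjusted p = 5.9e-06 in edgeR), again with EGF libraries apart from all others. Both genes hold the element printed above, whereas FARSA and HARS, which rose by 0.73 and 0.72, have a window without a match.

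Both subunits of the cytosolic phenylalanyl enzyme rose together. FARSA, the α subunit, had 94.33, 92.65 and 96.91 CPM untreated, 152.7, 162.9 and 155.8 CPM with EGF, and 101.4, 114.5 and 110.4 CPM with bleogen pB1. FARSB, the β subunit, had 88.55, 85.62 and 90.27 CPM untreated, 156.5, 122.4 and 136.9 CPM with EGF, and 99.08, 128 and 108.4 CPM with bleogen pB1. Under EGF the log2 fold changes were 0.73 for FARSA (SE 0.06, adjusted p = 4.3e-07) and 0.65 for FARSB (SE 0.10, adjusted p = 7.4e-05). For both subunits the bleogen pB1 libraries also lay above all the untreated ones, with log2 fold changes of 0.20 (SE 0.06, adjusted p = 0.074) and 0.34 (SE 0.10, adjusted p = 0.068) that did not pass the test. For FARSB the highest bleogen pB1 library exceeded the lowest EGF library.

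YARS, which charges tyrosine, had 145.8, 147.1 and 153.2 CPM untreated, 229.9, 227 and 230.4 CPM with EGF, and 132, 153.2 and 142.8 CPM with bleogen pB1. The 3 EGF libraries of this gene were within a few CPM of each other and far above the rest, with a log2 fold change of 0.62 (SE 0.06, adjusted p = 1.8e-06). SARS, the seryl enzyme, had 140.7, 135.2 and 136.5 CPM untreated, 179.8, 216.2 and 192.8 CPM with EGF, and 127.8, 129.6 and 128.6 CPM with bleogen pB1. Its log2 fold change under EGF was 0.51 (SE 0.07, adjusted p = 1.8e-05), and its bleogen pB1 libraries all lay below the untreated ones without passing the test (-0.10, SE 0.07, adjusted p = 0.42). CARS, the cytosolic cysteinyl enzyme, had 69.46, 67.79 and 76.71 CPM untreated, 90.78, 111.1 and 99.84 CPM with EGF, and 60.38, 71.92 and 65.55 CPM with bleogen pB1. Its log2 fold change under EGF was 0.50 (SE 0.09, adjusted p = 0.00023), just under the study's limit of fold before rounding.

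Among the 8 cytosolic synthetases of the multisynthetase complex (DARS, EPRS, IARS, KARS, LARS, MARS, QARS and RARS), 6 rose under EGF, QARS fell and LARS did not pass. Their median log2 fold change was 0.37, against 0.57 over the 12 synthetases outside the complex, of which 10 rose and AARS fell. Both counts stand against 32.4% of all genes tested that rose and 33.6% that fell. RARS, the arginyl enzyme, led the complex with 101.5, 99.23 and 109.5 CPM untreated, 153.4, 146.7 and 150.5 CPM with EGF, and 111, 124.1 and 111.5 CPM with bleogen pB1 (log2 fold change under EGF 0.54, SE 0.06, adjusted p = 8.3e-06). IARS, the isoleucyl enzyme, had 456.6, 439.2 and 496.2 CPM untreated, 657.7, 667.1 and 662.2 CPM with EGF, and 428.4, 543.4 and 487.3 CPM with bleogen pB1 (0.51, SE 0.08, adjusted p = 9.1e-05). KARS, which charges lysine in the cytosol and the mitochondrion, had 199.2, 212 and 216 CPM untreated, 306, 283.3 and 300.2 CPM with EGF, and 222.9, 255.4 and 236.6 CPM with bleogen pB1 (0.50, SE 0.06, adjusted p = 1.6e-05). In all 3 genes every EGF library was above every other library. The other members of the complex that rose were MARS (0.38), EPRS (0.36), whose protein holds both the glutamyl and the prolyl enzyme, and DARS (0.27). Outside the complex, NARS rose as well (0.26, SE 0.07, adjusted p = 0.0041).

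AARS and QARS fell under EGF. AARS, the alanyl enzyme (chr16:70251983-70289707, - strand), had 220.6, 218.6 and 236.7 CPM untreated, 189.2, 168.2 and 177.5 CPM with EGF, and 183.6, 185.8 and 177.5 CPM with bleogen pB1. All treated libraries lay below all untreated ones, and the treatments overlapped. The log2 fold changes were -0.34 under EGF (SE 0.06, adjusted p = 0.00026) and -0.31 under bleogen pB1 (SE 0.06, adjusted p = 0.013), and the difference of EGF from bleogen pB1 was -0.03 (SE 0.06, adjusted p = 0.66). QARS, the glutaminyl enzyme of the complex (chr3:49095932-49105130, - strand), had 186.4, 178.7 and 180.7 CPM untreated, 140.3, 157 and 157 CPM with EGF, and 173.1, 163.2 and 165.5 CPM with bleogen pB1. The libraries of both treatments lay below the untreated ones, but only EGF passed the test (-0.26, SE 0.06, adjusted p = 0.0015, against -0.12, SE 0.06, adjusted p = 0.24), and the difference of EGF from bleogen pB1 was -0.14 (SE 0.06, adjusted p = 0.051).

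WARS, the tryptophanyl enzyme (chr14:100333790-100376805, - strand), was the synthetase gene with the largest change under bleogen pB1 among those that passed the test. It had 287.8, 254.8 and 283 CPM untreated, 258.9, 244.2 and 244.4 CPM with EGF, and 204, 175.2 and 188.4 CPM with bleogen pB1. The bleogen pB1 libraries were the lowest, with no overlap with either other group, and the EGF and untreated libraries overlapped. WARS fell under bleogen pB1 by 0.54 on the log2 scale (SE 0.07, adjusted p = 0.00084). Under EGF its log2 fold change was -0.14 (SE 0.07, adjusted p = 0.08), and it was higher with EGF than with bleogen pB1 by 0.40 (SE 0.07, adjusted p = 0.00031). A WARS window (GRCh38.p14, chr14:100375383-100375499, - strand) is shown because WARS is known as a gene induced by interferon, with a match of the gamma activated site (TTCNNNGAA) and of the interferon-stimulated response element (TTTCNNTTTC, here on the opposite strand) in capitals.
WARS: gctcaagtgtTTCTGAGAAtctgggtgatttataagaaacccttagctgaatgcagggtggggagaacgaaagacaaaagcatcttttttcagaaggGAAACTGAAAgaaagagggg
The interferon-stimulated element was found in the windows of WARS and of EARS2 and of no other synthetase gene, against 3.57% of all windows and 3.96% of tested genes. The gamma activated site was found for CARS, TARS and WARS in the cytosolic and PARS2 and WARS2 in the mitochondrial set, against 7.66% of windows and 8.69% of tested genes. All 11 genes of a list of known interferon response genes fell under EGF (median log2 fold change -2.19) and 7 of 11 fell under bleogen pB1 (median -0.60), against 33.6% and 2.55% of all genes tested. Whether these changes bear on WARS was not tested. IFIT1, an antiviral interferon-induced gene, fell by 3.13 under EGF and by 0.65 under bleogen pB1. The cytosolic gene that neither rose nor fell in any comparison was LARS, the leucyl enzyme, which had 180.9 to 193.3 CPM untreated, 192.6 to 195.7 CPM with EGF and 185.3 to 201 CPM with bleogen pB1.

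The histidyl pair moved in opposite directions under EGF. HARS, the cytosolic enzyme (chr5:140673035-140691537, - strand), had 63.77, 65.33 and 63.71 CPM untreated, 103, 106.5 and 109.1 CPM with EGF, and 68.27, 77.31 and 73.55 CPM with bleogen pB1. HARS2, the mitochondrial enzyme (chr5:140691430-140699305, + strand), had 35.43, 36.15 and 40.5 CPM untreated, 26.89, 21.7 and 26.19 CPM with EGF, and 34.73, 28.91 and 34.23 CPM with bleogen pB1. Under EGF, HARS rose by a log2 fold change of 0.72 (SE 0.06, adjusted p = 5.5e-07) and HARS2 fell by 0.58 (SE 0.10, adjusted p = 0.00024). The genes lie head to head, and their GENCODE spans given above overlap from 140691430 to 140691537. Their RefSeq starts are at 140691370 for HARS and 140691455 for HARS2, and the 84 bases between them (chr5:140691371-140691454, GRCh38.p14, + strand), shown because both genes start at its ends, hold the ETS core CCGGAAG in each orientation, in capitals.
HARS to HARS2: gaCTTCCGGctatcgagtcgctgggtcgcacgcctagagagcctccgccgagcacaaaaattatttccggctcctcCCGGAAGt
The ETS core was found for 9 of 16 cytosolic and 7 of 14 mitochondrial genes with a window, against 10.3% of all windows and 22.8% of tested genes.

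Reads of HARS and HARS2 were divided between the genes. Their expected counts were not whole numbers in any of the 9 libraries, whereas the sum of both was whole in 9 of 9 (within 0.015 of a whole number). The summed level rose with EGF too, from 99.2 to 104.2 CPM in untreated libraries to 128.2 to 135.3 CPM, with 103 to 107.8 CPM under bleogen pB1. The ratio of HARS to HARS2 was 1.573 to 1.807 in untreated libraries, 3.829 to 4.91 with EGF and 1.966 to 2.674 with bleogen pB1, with no overlap between the groups. How the division of shared reads bears on the fall of HARS2 was not tested. The other genes with expected counts that were not whole were AARS2 and RARS2 in 9 libraries, TARS2 in 8, and LARS and YARS in 1.

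**Figure D3:**
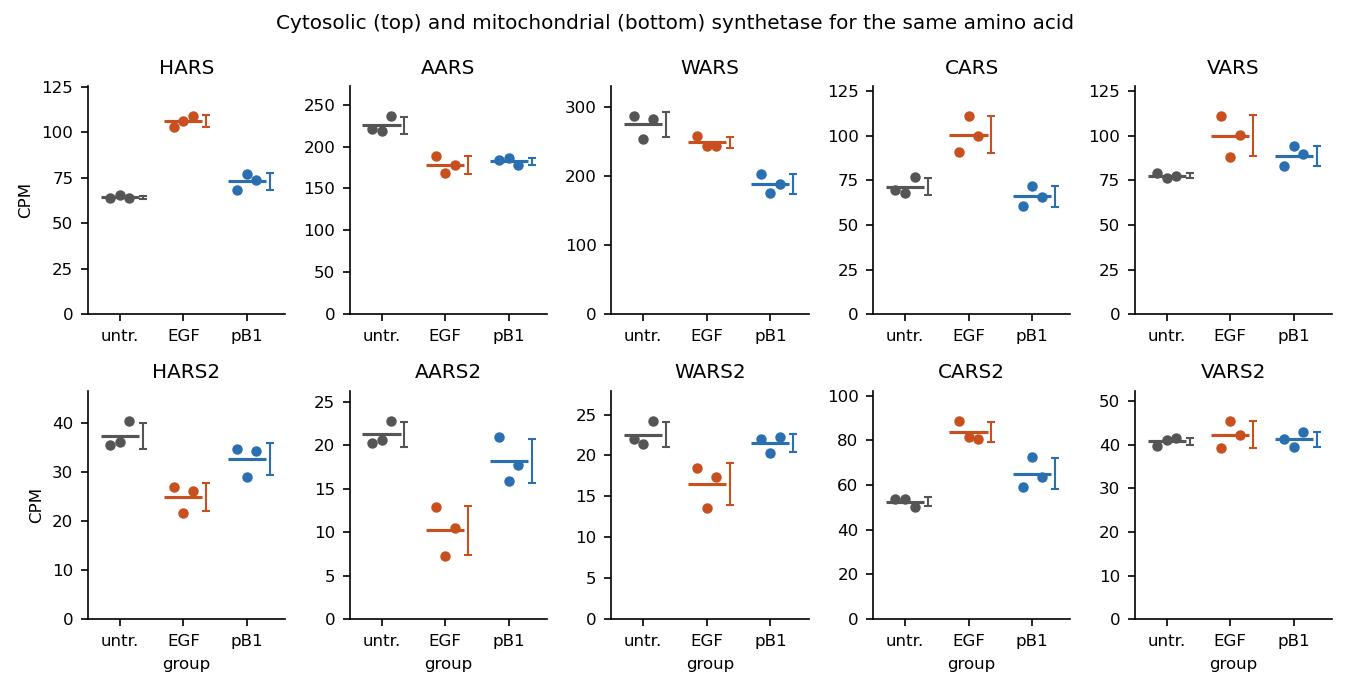
CPM (y axis, from 0) in each library of the 3 groups (x axis) for 5 cytosolic synthetases (top) and the mitochondrial synthetase for the same amino acid (bottom), with the mean as a line and the SD as a bar beside it, n = 3. HARS is highest with EGF where HARS2 is lowest, WARS is lowest with bleogen pB1, and CARS2 is lowest in untreated cells.

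In the mitochondrial set the largest rise was that of MARS2, the methionyl enzyme (chr2:197705369-197708395, + strand). Per length, in FPKM, MARS2 and AARS2 were the least abundant synthetase mRNAs in untreated cells. MARS2 had 13.5, 12.13 and 13.95 CPM untreated, 26.29, 25.33 and 29.03 CPM with EGF, and 15.14, 22.46 and 17.7 CPM with bleogen pB1. The groups did not overlap in any pair. Its fold under EGF was 2.04 (log2 fold change 1.03, SE 0.13, adjusted p = 1.7e-05), and under bleogen pB1 the log2 fold change was 0.48 (SE 0.13, adjusted p = 0.057). CARS2, the cysteinyl enzyme (chr13:110641412-110713603, - strand), had 53.84, 53.84 and 50.1 CPM untreated, 88.88, 81.62 and 80.54 CPM with EGF, and 59, 72.62 and 63.72 CPM with bleogen pB1. It rose under both treatments, by 0.67 under EGF (SE 0.08, adjusted p = 9.5e-06) and by 0.31 under bleogen pB1 (SE 0.08, adjusted p = 0.049), and was higher with EGF than with bleogen pB1 by 0.36 (SE 0.08, adjusted p = 0.0016). YARS2, the tyrosyl enzyme, had 30.17, 32.47 and 27.22 CPM untreated, 42.69, 45.62 and 44.87 CPM with EGF, and 30.29, 37.08 and 31.09 CPM with bleogen pB1. It rose with EGF by 0.57 (SE 0.09, adjusted p = 0.00013), as did EARS2, the glutamyl enzyme, by 0.37 (SE 0.09, adjusted p = 0.0021) and RARS2, the arginyl enzyme, by 0.20 (SE 0.08, adjusted p = 0.035). RARS2 libraries overlapped between EGF and untreated cells.

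The largest fall was that of AARS2, the mitochondrial alanyl enzyme (chr6:44298731-44313347, - strand), which had 20.24, 20.63 and 22.83 CPM untreated, 12.9, 7.251 and 10.49 CPM with EGF, and 20.92, 15.87 and 17.7 CPM with bleogen pB1. All EGF libraries were below all others and varied more among themselves than the untreated ones. AARS2 fell by 1.06 on the log2 scale under EGF (SE 0.17, adjusted p = 0.00011), to 0.48 times the untreated level. TARS2, the threonyl enzyme, had 43.48, 40.43 and 45.14 CPM untreated, 32.99, 26.74 and 29.27 CPM with EGF, and 40.08, 32.48 and 36.71 CPM with bleogen pB1. It fell by 0.54 (SE 0.10, adjusted p = 0.0003), and its EGF and bleogen pB1 libraries overlapped. Lesser falls under EGF were those of WARS2 by 0.45 (SE 0.11, adjusted p = 0.003) and of LARS2 by 0.32 (SE 0.09, adjusted p = 0.0064), the tryptophanyl and leucyl enzymes. All 5 mitochondrial genes that fell were lowest in EGF replicate 2 and highest in EGF replicate 1. Without EGF replicate 2, the log2 fold change of AARS2 was -0.85. TARS rose where TARS2 fell, as in the histidyl pair, while AARS and AARS2 both fell.

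By structural class, 5 of the 9 class I genes of the mitochondrial set rose with EGF and 2 fell, against 32.4% and 33.6% of all genes tested. Of the 7 class II genes 3 fell (AARS2, HARS2 and TARS2), and the one nearest to a rise, NARS2, had a log2 fold change of 0.22 (adjusted p = 0.051). The median log2 fold change was 0.20 over class I and -0.15 over class II. In the cytosolic set 6 of 9 class I and 9 of 10 class II genes rose, with EPRS holding a domain of each. The classes differ in the fold of their catalytic domain, and no test was made between them. The mitochondrial genes that passed no test under EGF ranged in log2 fold change from -0.15 for FARS2 to 0.22 for NARS2, and included IARS2, the most abundant of the set (-0.01, SE 0.06). VARS and VARS2, the valyl pair, both lie on chromosome 6. VARS had 79.2, 76.24 and 77.33 CPM untreated, 111.1, 88.11 and 100.3 CPM with EGF, and 82.79, 93.92 and 89.47 CPM with bleogen pB1, and rose with EGF by 0.36 (SE 0.08, adjusted p = 0.0014). VARS2 had 39.81, 41.07 and 41.51 CPM untreated, 39.29, 45.57 and 42.17 CPM with EGF, and 41.28, 39.49 and 42.98 CPM with bleogen pB1, and its groups overlapped in each comparison.

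Bleogen pB1 moved few synthetase mRNAs past the test. Of 20 cytosolic genes 0 rose and 2 fell (AARS and WARS), and of 16 mitochondrial genes 1 rose (CARS2) and 0 fell, against 1.56% of all genes tested that rose and 2.55% that fell. At an unadjusted p under 0.05 in edgeR, 6 cytosolic genes were higher and 2 lower, and 3 mitochondrial genes were higher and 1 lower. The share of all genes at that limit was not counted. DESeq2 called 2 cytosolic genes higher and 2 lower, and 2 mitochondrial genes higher, against 520 of 16186 genes higher and 508 lower. The 16186 genes include those of few counts that the filter took out before edgeR, so the shares are not alike. Only WARS passed the study's limit of fold as well, against 0.218% of genes rising and 1.26% falling at that limit. The median log2 fold change was 0.03 over the cytosolic and 0.07 over the mitochondrial genes, against -0.001 over all genes tested. Without a model, 8 of the 36 genes had all bleogen pB1 libraries above all untreated ones and 6 had all below, against 14.4% and 14.7% of all genes tested. With 3 libraries against 3, the exact two-sided permutation test cannot give a p below 0.1. Under EGF the same counts were 20 above and 7 below, against 34.5% and 35.9%.

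The bleogen pB1 libraries stood in much the same order across these genes. Of the 16 cytosolic genes that rose with EGF, bleogen pB1 replicate 2 was the highest bleogen pB1 library for 16, and replicate 1 was the lowest for 14. The same held for the 5 mitochondrial genes that rose with EGF, with replicate 2 highest and replicate 1 lowest in all 5. The libraries as wholes stood in this order too, by a chi-square per gene for how far the counts of paired libraries differ. Bleogen pB1 replicate 2 was nearest to EGF (72.7 to 89) and farthest from untreated (35.5 to 44.1). Replicate 1 was the reverse (123 to 136 and 12.5 to 17.3), so that the order is not particular to synthetase genes. Without bleogen pB1 replicate 1, 4 cytosolic genes passed as higher (FARSA, FARSB, HARS and KARS) beside the 2 that fell, and 3 mitochondrial genes rose (CARS2, EARS2 and MARS2). Without replicate 2 no synthetase gene rose and 2 fell. The calls over all genes tested moved likewise. With all libraries 193 of 12394 rose and 316 fell. Without replicate 1, 813 of 12526 rose and 736 fell, and without replicate 2, 38 of 12521 rose and 164 fell. The call of CARS2 was lost when bleogen pB1 replicate 2 or 3, any untreated library or EGF replicate 3 was left out. That of AARS was lost without untreated replicate 1 (adjusted p = 0.058), untreated replicate 3 (0.064) or bleogen pB1 replicate 3 (0.1), whereas WARS passed in all such fits.

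Compared directly, EGF-treated cells had more of 16 cytosolic synthetase mRNAs than bleogen pB1-treated cells with 0 lower, and the median log2 difference was 0.39. Of all genes tested 28.5% were higher with EGF and 29.7% were lower. At an unadjusted p under 0.05 in edgeR 1 cytosolic gene, QARS, was lower, with no share over all genes counted. DESeq2 called 0 cytosolic genes lower. In the mitochondrial set, CARS2, MARS2 and YARS2 were higher with EGF, and AARS2, HARS2, LARS2, TARS2 and WARS2 were lower. The largest differences were those of GARS (0.80, SE 0.09, adjusted p = 1e-05), TARS (0.68, SE 0.08, adjusted p = 1.7e-05) and YARS (0.68, SE 0.06, adjusted p = 1.3e-06) in the cytosolic set and of AARS2 (-0.83, SE 0.17, adjusted p = 0.001) and MARS2 (0.54, SE 0.13, adjusted p = 0.0025) in the mitochondrial set. AARS, LARS, QARS and VARS did not pass the test. With upper-quartile factors 14 cytosolic genes were higher and 1 lower with EGF, and the share of higher among all genes called was 37.2% instead of 49.0%.

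The scaffold of the multisynthetase complex moved in part. EEF1E1, which tethers MARS to the complex, had 22.65, 21.71 and 25.31 CPM untreated, 37.89, 40.99 and 41.01 CPM with EGF, and 20.92, 29.14 and 24.72 CPM with bleogen pB1, and rose with EGF by 0.78 (SE 0.11, adjusted p = 3.7e-05). AIMP2, the core scaffold protein, rose by 0.26 (SE 0.07, adjusted p = 0.004). AIMP1, which binds RARS in the complex, had 45.98, 49.71 and 52.25 CPM untreated and 53.99, 36.76 and 46.84 CPM with EGF, groups that overlapped (-0.10, SE 0.12, adjusted p = 0.44). Under bleogen pB1 their log2 fold changes were 0.10, 0.13 and 0.09, and none passed.

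Among genes of the amino acid response known as targets or partners of ATF4, 14 of 18 rose and 3 fell under EGF (median log2 fold change 0.40), against 32.4% and 33.6% of all genes tested. Of the same genes 3 fell under bleogen pB1 and 0 rose in edgeR (median -0.19), against 1.56% of all genes tested that rose and 2.55% that fell. DESeq2 called 4 of them lower, against 520 of 16186 genes higher and 508 lower, genes of few counts included. At an unadjusted p under 0.05 in edgeR, 0 of the list were higher and 8 lower, with no share over all genes counted. The 4 with the smallest adjusted p under EGF were XPOT, which exports tRNA from the nucleus (0.73, SE 0.08, adjusted p = 7.8e-06), MTHFD2, a mitochondrial enzyme of one-carbon metabolism (1.18, SE 0.14, adjusted p = 9.1e-06), SHMT2, which makes glycine in the mitochondrion (0.74, SE 0.09, adjusted p = 1.2e-05), and TRIB3, a pseudokinase induced by ATF4. TRIB3 had 131.6, 131.6 and 148.7 CPM untreated, 174, 239.3 and 220.1 CPM with EGF, and 83.75, 92.94 and 91.72 CPM with bleogen pB1. It rose under EGF by 0.62 (SE 0.10, adjusted p = 0.00012) and fell under bleogen pB1 by 0.62 (SE 0.10, adjusted p = 0.0046), with no overlap between any groups. The other genes of the list that fell under bleogen pB1 were PCK2, by 0.57, and CTH, by 0.51, named because there are few. PCK2 fell under EGF as well, by 0.38 (SE 0.08, adjusted p = 0.0012 in edgeR). CTH rose under EGF by 0.28 (SE 0.11, adjusted p = 0.04 in edgeR), with EGF and untreated libraries that overlapped. The other genes of the list that fell under EGF were PHGDH, by 0.40, and ATF5, by 0.41, named for the same reason.

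The other steps around the synthetases gave mixed counts, to be read against 32.4% of all genes tested that rose and 33.6% that fell under EGF. Of 11 genes of tRNA export and end processing, 5 rose under EGF and 2 fell, led by XPOT and by XPO5 (0.54), ELAC2, which trims the tRNA's end (0.37), and RTCB, the tRNA ligase (0.35). Of the 3 free-standing factors that clear wrongly charged tRNA, AARSD1 rose (0.39, SE 0.12, adjusted p = 0.014), while DTD1 and DTD2 did not pass. Of the 5 cytosolic elongation factor genes, which bring charged tRNA to the ribosome or move it on, 3 rose and 2 fell, with EEF1B2 at 0.39 and EEF1G at -0.56. Of 10 mitochondrial translation factors 5 rose and 2 fell, with MTRF1L, a release factor, at 0.66, GFM2, which recycles ribosomes, at 0.57, and TUFM, the elongation factor, at 0.38. Of the 3 subunits of the amidotransferase that makes mitochondrial glutaminyl-tRNA from a glutamyl-tRNA charged by EARS2, GATB fell (-0.24, SE 0.07, adjusted p = 0.013) and QRSL1 and GATC did not pass. Under bleogen pB1, 0 of the 35 genes of these groups and the scaffold passed the test in edgeR. At an unadjusted p under 0.05 in edgeR 4 were higher and 1 lower, with no share over all genes counted. DESeq2 called 1 higher, against 520 of 16186 genes higher and 508 lower, genes of few counts included.

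**Figure D4:**
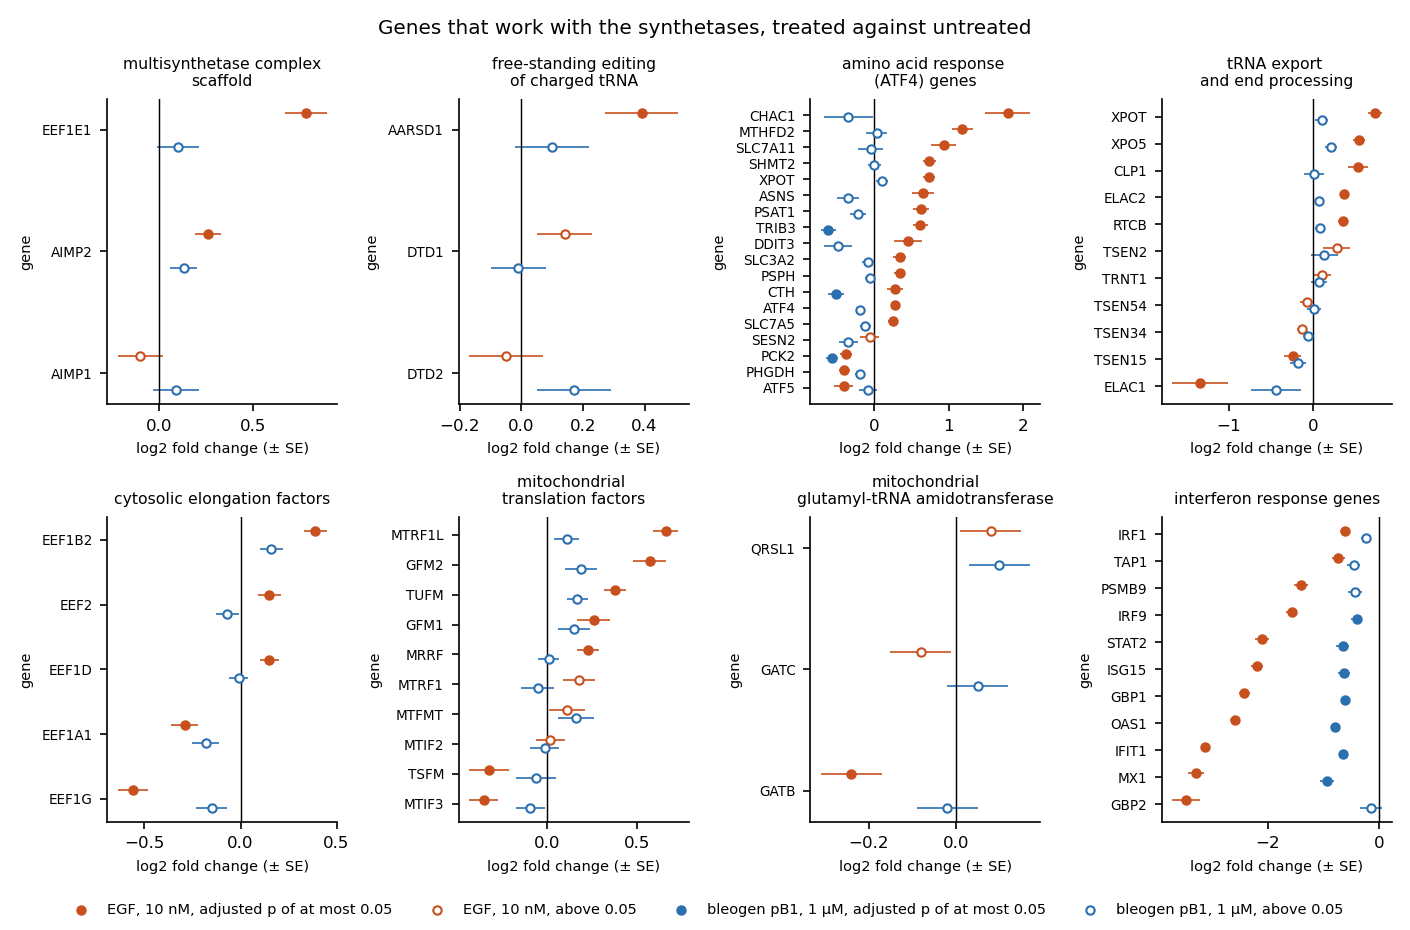
Log2 fold change against untreated cells (x axis of each panel, with its own scale) with its SE for genes of the scaffold, of tRNA editing, the amino acid response, tRNA processing, cytosolic and mitochondrial translation and the interferon response, 3 libraries per group. Filled points have an adjusted p of at most 0.05; 14 of 18 amino acid response genes rose with EGF (orange) and 3 fell with bleogen pB1 (blue), and all 11 interferon response genes fell with EGF.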

How the data were processed

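RNA from 9 HaCaT libraries (3 per group, groups from the titles) was used. Poly(A) RNA was sequenced by BGI with dUTP strand marking; whether strand was used in counting, and the program that counted, are not given in the sources used here. Reads were mapped to GRCh38.p12 per the labels. Each deposited expected count is an unscaled estimate of the reads of a gene. The deposited FPKM are scaled by gene length and library size, and their lowest listed value is 0.01. The gene lengths deposited with them were used for no test.

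After rounding, counts entered the quasi-likelihood test of edgeR 4.0.16 (R 4.3.3) with filterByExpr (12394 genes kept), TMM factors, glmQLFit and glmQLFTest on group over all 9 libraries (6 residual degrees of freedom), with Benjamini-Hochberg adjustment over all genes tested. CPM were computed with the same factors. The SE of a log2 fold change is its size over the root of the F statistic. The study's own calls used DESeq2 with a limit of 0.5 on the log2 fold change, which is given beside the adjusted p of at most 0.05. DESeq2 1.42.0 on the counts, limma 3.58.1 on log2(FPKM + 1) and log2(FPKM + 0.1), other scaling factors and filters, leaving out each library, and the replicate number as a block were alternatives. Data were simulated with the means of the untreated group and the sizes of the libraries (EGF against untreated, 12390 genes). There edgeR recovered 183 of 200 genes changed by 2-fold with 10 false calls, and 158 of 200 changed by 1.5-fold with 8. Far fewer genes were changed than in the real EGF comparison, where 32.4% rose and 33.6% fell. These numbers therefore need not carry over to it.

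The genes and lists were chosen with earlier results of these data known. All 36 genes may be named. Library values are given for those past both limits in any comparison or called under bleogen pB1, and for the histidyl and valyl pairs. QARS was added after its values were seen. Of each further list up to 4 genes with the smallest adjusted p under EGF are named, of the scaffold all 3, and exceptions are said to be so. One gene of the interferon list is not reported here. Promoter windows are RefSeq's, and gene coordinates are GENCODE's on GRCh38. Figures and tables used Python 3.11.15, pandas 2.3.3 and matplotlib 3.10.9.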

Additional observations from a re-analysis of the deposited data

Results flagged for a closer look

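In 2 synthetase genes that passed the test under bleogen pB1, the effect of EGF differed from that of bleogen pB1 in a direct test of the treatments (edgeR's quasi-likelihood test). WARS was higher with EGF than with bleogen pB1 by 0.40 on the log2 scale (SE 0.07, adjusted p = 0.00031), with 3 of 3 EGF libraries above all bleogen pB1 libraries. CARS2 rose under both treatments and was higher with EGF by 0.36 (SE 0.08, adjusted p = 0.0016), again with 3 of 3 EGF libraries above all bleogen pB1 libraries. AARS, the third gene called under bleogen pB1, showed no such difference (-0.03, SE 0.06, adjusted p = 0.66). The doses of the agents differ, 10 nM against 1 µM, so that agent and dose cannot be told apart. No gene's groups were tested for a single library far from the others, since groups of 3 are too small for it.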

How the results depend on the processing

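Under EGF, all 18 cytosolic calls held under 21 of 21 alternatives, and 9 of the 10 mitochondrial ones; RARS2 held in 12 of 21. No synthetase gene's called direction turned in any alternative. With the limit of 0.5 on the log2 fold change, the cytosolic and mitochondrial counts under EGF were 10 and 6, and under bleogen pB1 1 and 0. Between the treatments they were 7, all higher with EGF, and 2, of which 1 was higher and 1 lower. Of all 12394 genes tested, 1339 were higher and 2225 lower with EGF than with bleogen pB1 at that limit. Under bleogen pB1, DESeq2 called 4 cytosolic genes with 9 libraries and 5 with 6, and 2 mitochondrial genes with either; no count filter gave 2 mitochondrial genes, and upper-quartile factors and limma on all genes with either pseudocount gave 0 (1 with FPKM of at least 1 in 3 libraries). Over all genes, DESeq2 called 520 higher and 508 lower with 9 libraries, and 618 higher and 608 lower with 6. The causes were not tested. WARS was called under bleogen pB1 in 21 of 21 alternatives, AARS in 18 and CARS2 in 11. WARS under EGF, not called as reported, was called lower in 7 of 21, for example with upper-quartile factors (-0.25, adjusted p = 0.0064; range of adjusted p over the alternatives 0.0064 to 0.25). As TPM instead of FPKM, the EGF sums were 1.329 times (cytosolic) and 1.056 times (mitochondrial) the untreated mean. Leaving out 1 library in turn gave 18 to 19 cytosolic and 9 to 11 mitochondrial calls under EGF, 1 to 6 and 0 to 3 under bleogen pB1, and 15 to 17 and 7 to 10 between the treatments. Whether same-numbered libraries pair by origin cannot be told from 3 libraries per group. Correlations of their deviations were 0.045, 0.036 and 0.004 for EGF and untreated and 0.207, -0.03 and 0.113 for bleogen pB1 and untreated. Those of libraries with different numbers ran from -0.076 to 0.041 and from -0.253 to 0.163. Blocking on the replicate number, the mitochondrial count under bleogen pB1 was 0, with CARS2 at an adjusted p of 0.056, and WARS was called lower under EGF (adjusted p = 0.043), FARS2 lower (0.044) and RARS2 higher (0.037) with EGF than with bleogen pB1; the block changed no other call of a synthetase gene. Between the treatments, calls of FARSB, NARS and TARS2 were lost in some alternatives. Every synthetase gene had at least 143.6 counts in each library.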
